A study of Caenorhabditis elegans with 2 samples.

Results

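The genes described here are 10 named cuticle collagens of *C. elegans* whose mutants are dumpy, roller, squat or blistered: *bli-1*, *bli-2*, *bli-6*, *dpy-4*, *dpy-5*, *dpy-13*, *dpy-17*, *rol-6*, *sqt-1* and *sqt-3*. They were taken by name, leaving out the 6 furrow collagens and the collagens known only by a *col-* number, and all 10 were found by WormBase identifier among the 46904 genes listed. RNA came from whole worms of the wild-type strain N2, grown on *L. plantarum* with a trace of *E. coli*, 0.2 µl, added. In 1 library this *E. coli* was wild-type BW25113, and in the other it was the *pdxH* mutant, which lacks an oxidase of the last step to pyridoxal phosphate, the active form of vitamin B6. The paper's methods describe the worms of both diets as being of the same stage, which is not named. The paper also reports that larvae given *L. plantarum* with a trace of the *pdxH* mutant arrested early and stayed small. Whether the 2 libraries match in stage was not tested. The study's methods give its worms as hermaphrodites started as synchronized first-stage (L1) larvae, and an age at collection is not given in the sources used here. With 1 library per diet no value has a replicate, so no test between the diets was possible and all intervals cover counting error only.

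The cuticle of *C. elegans* is an extracellular coat built mainly of small collagens that the epidermis secretes. A new cuticle is made in the embryo and again before each moult, and the transcripts of many collagen genes rise and fall once in each larval stage. Each collagen is a chain with interrupted Gly-X-Y repeats that joins 2 partners in a triple helix, is cut from a longer precursor and is then cross-linked into the coat. Mutations in single collagens can change the shape of the whole animal, which is how these genes got their names. A short, fat worm is dumpy (Dpy), a worm that turns around its long axis is a roller (Rol), a squat mutant (Sqt) can be dumpy or a roller depending on the allele and its dose, and a blistered worm (Bli) has fluid-filled swellings of the cuticle.

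The 10 genes lie on 5 of the chromosomes, with 4 on chromosome II, 3 on chromosome IV and 1 each on chromosomes I, III and V of the WBcel235 assembly. They do not form a cluster, since the nearest pair, *bli-1* and *sqt-1*, is 624536 bases apart. 9 of the 10 are short genes, with 1 to 3 annotated exons that add up to between 855 bases (*dpy-5*) and 1422 bases (*sqt-3*) and code for proteins of 284 to 352 residues. *bli-1* is the exception, with 5 exons, 3010 exonic bases and a coding sequence for 948 residues. *dpy-5* is annotated as a single exon with no bases outside its coding sequence and stop codon, and *sqt-3* has the longest untranslated ends.

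**Figure D1:**
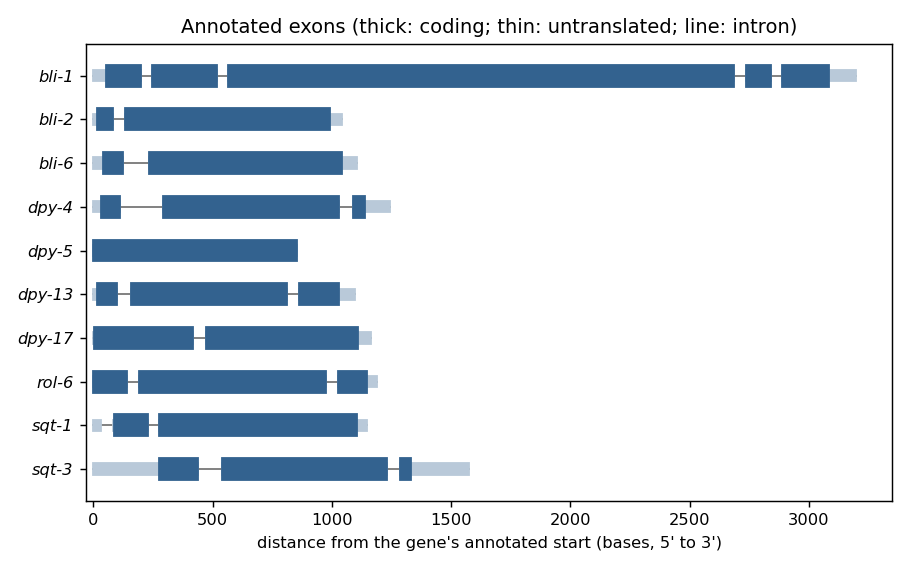
Exon maps of the 10 collagen genes drawn to scale, with the distance from each gene's annotated start in bases on the x axis; thick boxes are coding, thin boxes are untranslated (the stop codon is drawn with them) and lines are introns. *bli-1*, with 3010 exonic bases, stands apart from the 9 short genes, which have at most 1422.

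The wild-type library held 40707752 reads and the *pdxH* library 46372171, and the level of each gene is given as its reads and as CPM, its count per 1000000 reads of the library. A change is the log2 of the *pdxH* value over the wild-type value, each with a pseudocount of 1 on the deposited scale, where 1 read is worth 1.23 and 1.08 in the 2 libraries. Ratios were counted for the 14279 genes whose reads summed to 50 or more over both libraries, and their median was 0.01. Whole-worm markers were present in both libraries. The summed levels of the marker lists were 2095 and 1663 CPM for 5 intestinal genes, 8322 and 7311 CPM for 5 body wall muscle genes and 438 and 486 CPM for 5 neuronal genes, in wild type and *pdxH*. They were 229 and 157 CPM for 4 germline genes, of which 3 were tested with a median log2 ratio of -0.48 and *glh-1* lower past -0.5 at -0.61. The 31 sperm protein (*msp*) genes had 166 and 45 reads in all, with 17 of them at 3 reads or fewer in each library. Of 3 genes listed for dauer only *daf-7*, a signalling gene of the dauer pathway, was tested, at 0.54. The collagen genes *col-2*, with 20 and 6 reads, and *col-40*, with 6 and 5, were lower in reads and fell short of 50. The part of germline or sperm RNA in the collagen changes was not tested. Since the libraries are from whole animals, fewer epidermal cells and less collagen RNA per cell cannot be told apart.

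The dumpy collagens *dpy-4*, *dpy-5* and *dpy-13* were abundant with both diets and were between 2.51-fold and 2.87-fold lower with the *pdxH* mutant. *dpy-4* (WBGene00001066, chromosome IV, 14985543 to 14986784, minus strand) had 40009 reads, or 983 CPM, in the wild-type library and 17184 reads, or 371 CPM, in the *pdxH* library. Its log2 ratio was -1.41 (95% interval -1.43 to -1.38), so that 37.7% of the wild-type level was left. *dpy-5* encodes a collagen whose precursor is cut by the convertase BLI-4, and mutants of *dpy-5* and *dpy-13* are dumpy as larvae and as adults. *dpy-5* (WBGene00001067, chromosome I, 5432197 to 5433051, minus strand) had 26240 reads (645 CPM) and 11902 reads (257 CPM), a log2 ratio of -1.33 (95% interval -1.36 to -1.30). *dpy-13*, which encodes a collagen of the annuli, the circumferential bands between the furrows, gave the largest change among the abundant genes of the group. It (WBGene00001074, chromosome IV, 4235614 to 4236710, plus strand) had 39553 reads (972 CPM) and 15699 reads (339 CPM), a 2.87-fold lower level and a log2 ratio of -1.52 (95% interval -1.55 to -1.49). Of the 14279 genes tested, 122 had a lower ratio than *dpy-13*, 179 a lower one than *dpy-4* and 239 a lower one than *dpy-5*.

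*dpy-17*, also a dumpy collagen, was the 1 tested gene of the group that did not go lower. DPY-17 is needed in *C. elegans* for the secretion of SQT-3, and both act early, when the shape of the young larva is set. *dpy-17* (WBGene00001076, chromosome III, 5107330 to 5108492, plus strand) had 220 reads (5.40 CPM) in the wild-type library and 247 reads (5.33 CPM) in the *pdxH* library. The log2 ratio was -0.02 (95% interval -0.29 to 0.25), which allows a level up to 1.22-fold lower by counting error alone. It was thus the only one of the 10 with more reads in the *pdxH* library, and that library is the deeper by a factor of 1.14.

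The roller and squat collagens were between 2.53-fold and 2.65-fold lower, within the range of *dpy-4*, *dpy-5* and *dpy-13*. SQT-3 is the member of the group best known from the embryo, where it holds the elongated shape, and its C-terminal end is cut off by the protease DPY-31. *sqt-3* (WBGene00005018, chromosome V, 12352745 to 12354320, plus strand) had 39151 reads (962 CPM) on the wild-type diet and 16812 reads (363 CPM) on the *pdxH* diet, a log2 ratio of -1.41 (95% interval -1.43 to -1.38). SQT-1 and ROL-6 are related collagens that depend on each other genetically, and their roller phenotypes are seen in later larvae and adults. *sqt-1* (WBGene00005016, chromosome II, 11336693 to 11337837, minus strand) had 19257 reads (473 CPM) and 8290 reads (179 CPM), a log2 ratio of -1.40 (95% interval -1.44 to -1.37). *rol-6*, whose dominant roller allele is widely used as a marker of transgenic worms, lies on the same chromosome, 2602453 bases away. It (WBGene00004397, 8733050 to 8734239, plus strand) had 22504 reads (553 CPM) and 10150 reads (219 CPM), a log2 ratio of -1.34 (95% interval -1.37 to -1.30). In these 3 genes the *pdxH* library held between 37.7% and 39.6% of the wild-type level.

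The blister collagens had few reads, at most 95 in the wild-type library and at most 8 in the *pdxH* library. BLI-1, BLI-2 and BLI-6 build the struts, small columns that join the layers of the adult cuticle, and the blisters of their mutants appear in adults. *bli-6* (WBGene00000256, chromosome IV, 6377065 to 6378168, plus strand) had 95 reads (2.33 CPM) in the wild-type library and 3 reads (0.0647 CPM) in the *pdxH* library. Its log2 ratio, with the pseudocount, was -4.80, or 27.8-fold lower. Without the pseudocount 2.77% of the wild-type level was left, and the interval, also without it, ran from -7.48 to -3.58. *bli-2* (WBGene00000252, chromosome II, 5651394 to 5652434, minus strand) had 66 reads (1.62 CPM) and 8 reads (0.173 CPM), a log2 ratio of -3.09 (95% interval -4.50 to -2.17). The sizes of both changes are loosely set by so few reads. Their intervals lay below those of the 6 abundant genes. Both genes reached the minimum of 50 reads only through the wild-type library, which favours low ratios, so this does not set the struts apart. *bli-1* (WBGene00000251, chromosome II, 10708960 to 10712156, plus strand) had 11 and 8 reads and did not pass the minimum of 50. Its ratio of -0.59 had an interval from -2.17 to 0.80, so no difference was detectable at this depth.

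Per kilobase of exon, the order of the members was almost the same with both diets. With wild-type *E. coli* the levels per kilobase were 982 CPM for *dpy-13*, 979 for *dpy-4*, 754 for *dpy-5*, 676 for *sqt-3*, 508 for *rol-6* and 453 for *sqt-1*. The first pair did not differ beyond counting error, and each of the others was apart from its neighbour. With the *pdxH* mutant *dpy-4* came first at 369 CPM per kilobase, apart from *dpy-13* at 342, and the other 4 followed in the same order from 300.2 to 171. *dpy-17* came next at 4.86 and 4.79, so the step from *sqt-1* down to *dpy-17* was far larger than any step among the 6 above it. The struts were lowest, at 2.34 for *bli-6*, 1.63 for *bli-2* and 0.0898 for *bli-1* with wild-type *E. coli*, where the intervals of *bli-6* and *bli-2* overlapped. With the *pdxH* mutant they were at 0.0649, 0.174 and 0.0573, and the intervals of all neighbours among them overlapped. The place of *sqt-3* depends on its long untranslated ends. Per kilobase of coding sequence it had 1065 and 402 CPM, above *dpy-5* with 757 and 301. The first place depends on the length used as well. Per kilobase of coding sequence *dpy-4* led in both libraries, with 1134 and 427 CPM, where *dpy-13* had 1072 and 374.

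**Figure D2:**
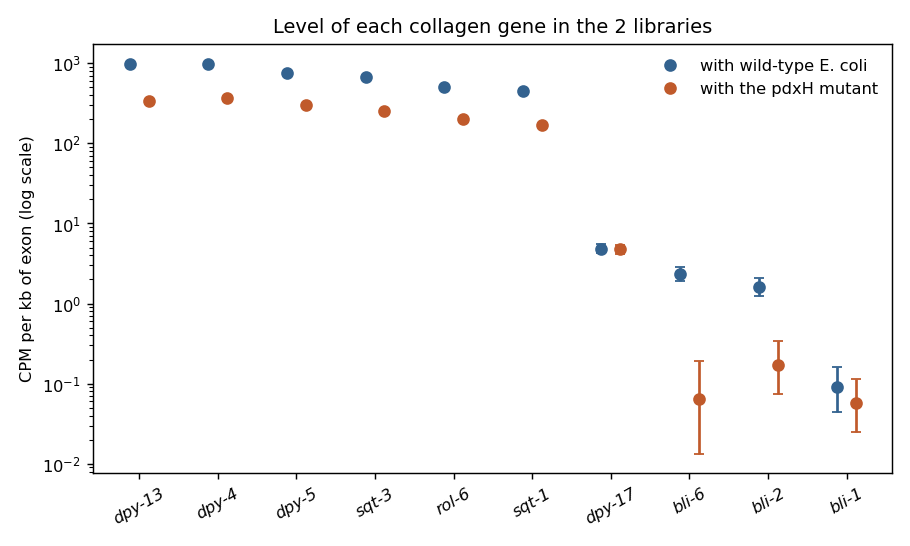
Level of each collagen gene in CPM per kilobase of exon (log axis), with 1 point per library and bars for the 95% Poisson interval of its reads. The 6 highest genes lie between 453 and 982 with wild-type *E. coli* and between 171 and 369 with the mutant, *dpy-17* is at 4.86 and 4.79, and *bli-2* and *bli-6* are at 0.174 and 0.0649 with the mutant.

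Counted over the group, 8 of the 9 members tested were lower by a log2 ratio past -0.5 and 0 were higher past 0.5. Among the 8, *bli-2* (66 and 8 reads) and *bli-6* (95 and 3) passed the read minimum only through the wild-type library. They could therefore be counted only as lower, here and in the counts below. At a minimum of 500 reads, 6 of 6 members and 7.1% of all genes were lower past -0.5. The threshold is on this log2 ratio, not on the GFOLD value by which the study called genes. Of all tested genes 9.46% were lower and 5.93% were higher by the same rule. The 8 genes were also past a log2 ratio of -1, which 3.84% of all tested genes were. Their counting intervals lay wholly below -0.5, as for 5.81% of all tested genes. An exact binomial test of the reads, which compares the 2 libraries and not the diets, called the same number of members below -0.5, beside 8.80% of all tested genes. The median log2 ratio of the 9 was -1.41. The reads of the 10 genes made up 0.460% of the wild-type library and 0.173% of the *pdxH* library.

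The 6 abundant genes *dpy-4*, *dpy-5*, *dpy-13*, *rol-6*, *sqt-1* and *sqt-3* held 99.8% and 99.7% of the group's reads and moved within a narrow range. Together they had 186714 reads (4587 CPM) in the wild-type library and 80037 reads (1726 CPM) in the *pdxH* library, a 2.66-fold lower level. Their log2 ratios ran from -1.52 to -1.33, a range of 0.19. Such a change was rare among genes of this abundance, since 44 of the 1664 genes that reached 10000 reads over both libraries, or 2.64%, were lower past a log2 ratio of -1. Of those 44 genes 21 are collagens of the lists used here, the 6 among them.

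Differences among the 6 were small but in part larger than the counting error. Of the 15 pairs, 11 had a difference whose 95% interval left out 0. The other 4 were *dpy-5* with *rol-6*, and each pair among *dpy-4*, *sqt-1* and *sqt-3*. *dpy-4* and *sqt-3*, on different chromosomes, differed by 0.0003 in log2 ratio (95% interval -0.04 to 0.04). The widest difference, between *dpy-5* and *dpy-13*, was 0.19 (95% interval 0.15 to 0.23). In shares of the 6 genes' reads, *dpy-13* went from 21.2% (95% Wilson interval 21.0% to 21.4%) to 19.6% (19.3% to 19.9%) and *dpy-5* from 14.1% (13.9% to 14.2%) to 14.9% (14.6% to 15.1%). *dpy-4* stayed at 21.4% and 21.5%, with overlapping intervals. Whether differences of this size exceed the variation between worm cultures was not tested.

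**Figure D3:**
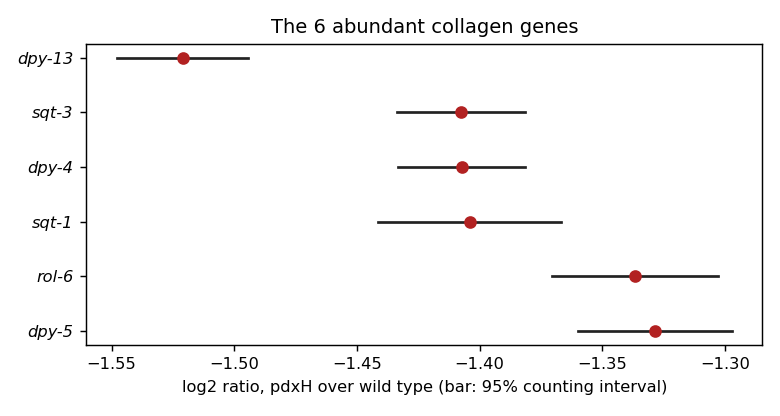
Log2 ratio of *pdxH* over wild type for the 6 abundant collagen genes, with 95% counting intervals as bars. *dpy-13* is lowest at -1.52, *sqt-3*, *dpy-4* and *sqt-1* sit together at -1.41 to -1.40, and *rol-6* and *dpy-5* are at -1.34 and -1.33.

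Related collagens were lower as well, in counts to be read beside the 9.46% of all tested genes lower past -0.5 and the 5.93% higher past 0.5. All 6 furrow collagens, which mark the grooves between the annuli, were lower past -0.5, from *dpy-3* at -1.40 to *dpy-10* at -1.09, with a median of -1.15. Of 5 other collagens with body-shape mutants, 4 were tested and all 4 were lower past -0.5. The long-body gene *lon-3* was at -1.52, *sqt-2* at -1.43 and *rol-8* at -1.31. *rol-1* went from 66 reads to 2, a log2 ratio of -4.70 (95% interval -8.31 to -3.32). It passed the read minimum only through the wild-type library, so it could be counted only as lower. Among the numbered *col-* genes 107 of 156 were tested. 85 of them were lower past -0.5 and 0 higher past 0.5, with a median of -1.03. The 23 numbered collagens with at least 10000 reads ran from -1.65 to -0.08, and 12 of them were past -1. A large decrease was therefore common in abundant collagens without being general, and no test of a difference between these lists could be made with 1 library per diet.

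**Figure D4:**
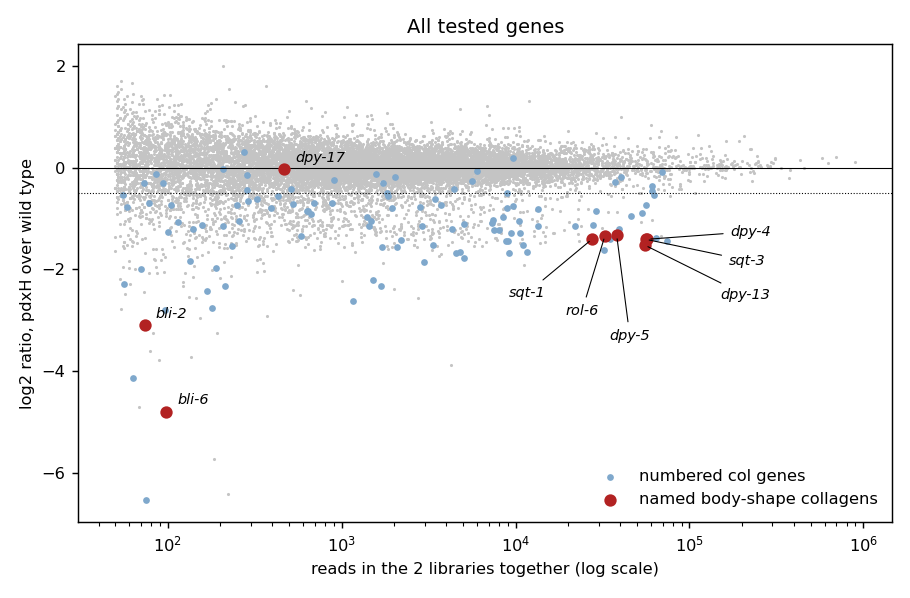
Log2 ratio of *pdxH* over wild type against the reads of each of the 14279 tested genes in both libraries (log axis, grey), with the numbered *col-* genes in blue and the 9 tested members in red; the dotted line is at -0.5. 6 members form a compact set between -1.52 and -1.33 at high read counts, *dpy-17* lies at -0.02, and *bli-2* and *bli-6* lie at -3.09 and -4.80 with fewer than 100 reads.

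Genes for the proteins that modify and join collagens were mostly within 0.5 of no change on the log2 scale. The list holds prolyl hydroxylases, processing proteases and cross-linking enzymes, and also some proteins that are not enzymes. Of its 12 genes 11 were tested. 3 were lower past -0.5, beside the 9.46% of all tested genes, 0 were higher past 0.5 and 8 were between, with a median of -0.07. The 3 lower genes were *bli-5*, which encodes a protease inhibitor of the Kunitz type, at -1.11, the peroxidase gene *mlt-7* at -0.64 and *doxa-1*, the maturation factor of the dual oxidase, at -0.58. The proteases named above with their substrates were near 0, *bli-4* at -0.23 and *dpy-31* at -0.07. *dpy-18*, a prolyl hydroxylase subunit, was at 0.31, and the highest was *tsp-15* at 0.35.

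**Figure D5:**
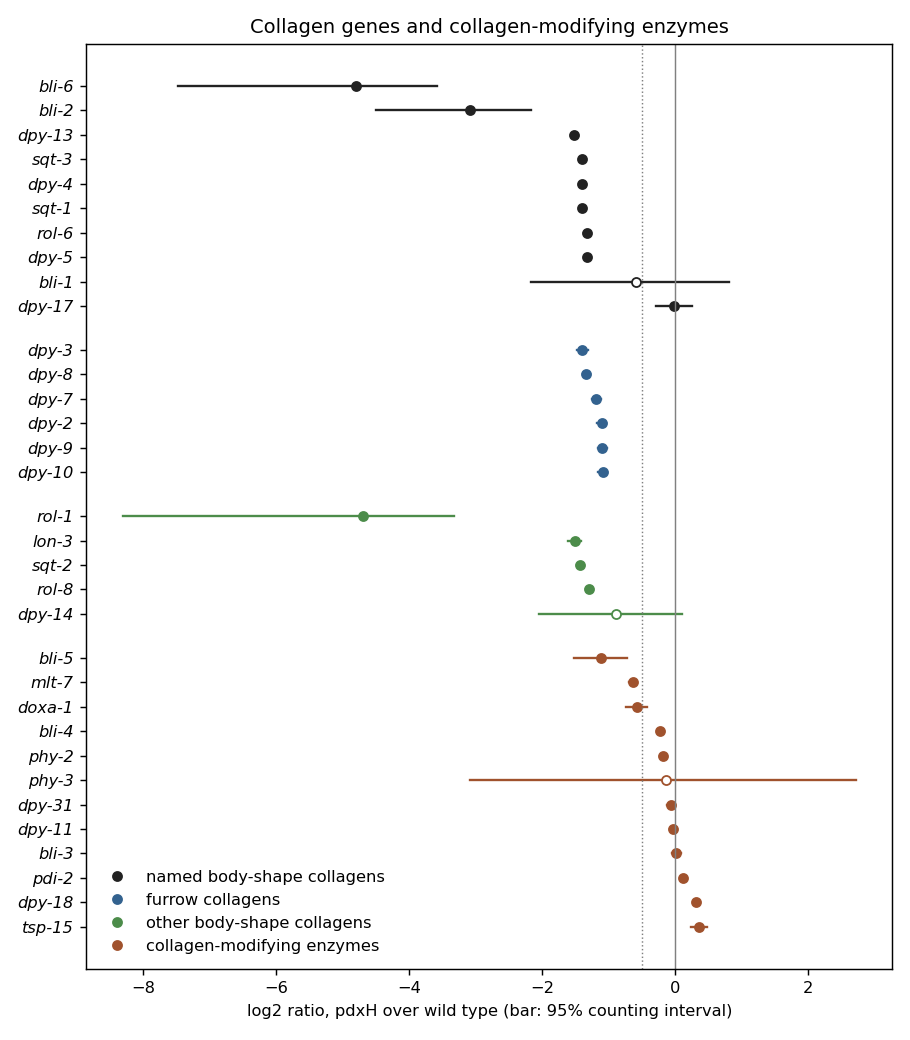
Log2 ratio of *pdxH* over wild type with 95% counting intervals for the 10 named body-shape collagens, the 6 furrow collagens, 5 other body-shape collagens and 12 genes of the list of collagen-modifying enzymes, not all of them enzymes. Open circles are genes with fewer than 50 reads and the dotted line is at -0.5. The tested collagens lie between -1.52 and -1.09 apart from *bli-2*, *bli-6* and *rol-1*, which are lower, and *dpy-17* at -0.02. Of the 11 tested genes of the enzyme list, 8 lie between -0.23 and 0.35.

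Markers of stage and of the epidermis moved with these genes in part. The 4 tested of 6 numbered collagens of late larvae and adults were all lower past -0.5. So were 85 of the 107 numbered collagens tested and 9.46% of all tested genes. Some of the 107 passed the read minimum only through the wild-type library. The 6 late genes had 415 reads in all in the wild-type library, against 122 on the *pdxH* diet, and *col-63*, the lowest, went from 75 reads to 0. *col-63* and *col-49*, with 46 and 10 reads, passed the read minimum mainly through the wild-type library, which favours lower ratios. *col-138*, with 102 and 32 reads, reached the minimum in its wild-type reads alone but not in its *pdxH* reads alone. Of the 4, only *col-38*, with 137 and 70 reads, reached it in each library. Of 8 adult genes (*vit-1* to *vit-6*, *col-7* and *col-19*, the last 2 also in the list before) none passed the read minimum. Together they had 107 and 49 reads, of which the 6 *vit* genes had 52 and 39, with *vit-5* at 0 in both libraries. *col-7* had 26 and 9 reads and *col-19* had 29 and 1. Of 7 epidermal genes 2 were lower past -0.5, the hedgehog-related genes *qua-1* at -1.34 and *grd-10* at -0.67. The 5 regulators of epidermal fate and moulting *elt-1*, *elt-3*, *lin-26*, *nhr-23* and *nhr-25* were between -0.27 and 0.17. The summed level of the 7 was 596 CPM on the wild-type diet and 411 on the other, or 345 and 312 CPM without *qua-1*. The part of stage, of position within a moulting cycle and of epidermal cell number in the collagen changes was not tested.

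By the likeness of the log2 ratio over the 2 libraries, the tested numbered collagens nearest to *bli-6*, the lowest member, were *col-175* with 60 and 3 reads, *col-63* with 75 and 0 and *col-81* with 84 and 13. The nearest was 0.66 away on the log2 scale, and the counting interval of *bli-6* is wide enough to hold the ratios of *col-175* and *col-63*. Nearest to *dpy-17*, the highest member, were *col-45* with 98 and 110 reads, *col-118* with 2875 and 3150 and *col-42* with 33508 and 36154, all within 0.06. With 2 libraries this likeness is a single number per gene.

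The annotation shows few genes that overlap the members. *dph-2* shares 7 exonic bases with *bli-1* on the opposite strand and had 655 and 690 reads, more than *bli-1* itself. A non-coding gene opposite *sqt-3* shares 144 exonic bases and had 4 and 5 reads. *zyg-1* and *atln-2* overlap the span of *bli-2* and *dpy-4* without shared exonic bases. How reads common to similar collagens or to opposite strands were counted is not given in the sources used here.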

How the data were processed

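Whole-worm RNA was sequenced in 1 library per diet. The authors trimmed reads with Trimmomatic, mapped them with STAR 2.5.3a to ce11, counted them per gene with HTSeq and tabulated them with GFOLD 1.1.4. The deposited signal columns are named RPKM, but all genes were given a length of 20 bases, so each signal value is a read count scaled by the library total alone. The comparison columns of the authors (fold change, GFOLD value and error rate) were not used.

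Reads were recovered by dividing by the value of 1 read. Of the values above 0, 97.8% (wild type) and 97.6% (*pdxH*) were within 0.02 of a whole number, and the sums equalled the totals in the file header. On these reads the exact binomial test (Benjamini-Hochberg, 0.05, log2 ratio past 0.5) called 1256 genes lower and 651 higher. Intervals of ratios are exact (Clopper-Pearson), those of levels Poisson and those of differences between genes normal approximations, all at 95%. They cover counting error only, and those of ratios use the reads without a pseudocount. Scripts (Python 3.11.15, scipy 1.17.1) were tested on simulated data.

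Gene positions, exons and lengths came from Ensembl release 115 (WBcel235, the assembly of ce11), which held 46817 of the 46904 identifiers, and symbols were found for 44017. The members and gene lists were chosen with earlier results of these data known. All members are named. For other lists, the text names the lowest and highest gene and, chosen after their values were seen, genes with a stated role. Alternatives were other pseudocounts, scalings, read minimums and thresholds.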

Additional observations from a re-analysis of the deposited data

How the results depend on the processing

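No paired analysis was possible because there was a single library for each diet, and none could be left out. With pseudocounts of 0.1 and 5, centring on the median and median-of-ratios scaling, the 40 member values were all inside the counting interval of the reported value, and 0 changed sign. The scalings shifted log2 ratios by 0.01. The count of lower members was 8 under each alternative except that it was 6 of 6 at a minimum of 500 reads, which drops *bli-2*, *bli-6* and *dpy-17*, and 9 of 10 without a minimum, which adds *bli-1*. The median ran from -1.42 to -1.41. The share of all genes lower past the threshold moved from 9.46% to 19.4% without a read minimum, 3.84% at a threshold of 1 and 5.81% by the counting interval. Few reads limit the sizes given for *bli-1*, *bli-2* and *bli-6*. The ratio of *bli-6* was -5.13 with a pseudocount of 0.1 and -3.89 with 5.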

Other observations

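Among the 1664 genes with at least 10000 reads, 19 had a log2 ratio within the range of the 6 abundant members, -1.52 to -1.33. They were the 6 members, 6 other collagens (*col-17*, *col-41*, *col-92*, *col-125*, *sqt-2* and *dpy-8*) and 7 other genes. These 7, named after their values were seen, were *mlt-11*, a protease inhibitor gene of the moult, at -1.45, the chitin-binding gene *chtb-1* at -1.45, *qua-1* at -1.34, the cadherin gene *cdh-12* at -1.41, and *F30H5.3*, *F33D4.6* and *F41F3.3* at -1.49, -1.48 and -1.34. The lowest of all genes of this abundance was *lep-5*, a non-coding RNA gene of larval timing, with 8598 reads against 2611 and a ratio of -1.91 (log2). Since these genes were picked by their ratio, their likeness to the members is no independent finding.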
